A study of Mus musculus with 12 samples.

Results

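Synemin, desmin, vimentin and nestin are proteins of intermediate filaments, and their genes Synm, Des, Vim and Nes were followed across 4 groups of mouse libraries. The 4 genes were taken by symbol from a table of raw RNA-seq counts with 52550 genes, and each symbol matched 1 gene. They were selected on their measured levels in P and M medium, between which Synm and Des had moved in opposite directions. The levels between media are therefore given as a description, with no test. The data comprise 12 libraries of wild-type mouse material, 3 biologically independent replicates in each group, all labelled day 28. In 3 groups, primary cells of the intestinal muscle wall had been cultured for 28 days. P plate cells grew on well plates in DMEM with 10% fetal bovine serum, called proliferation medium, and ABAM, an antibiotic and antimycotic mix. M plate cells had well plates too, with a serum-free differentiation medium. Its base was Advanced DMEM with Ham's F-12, and it held the N2 and B27 supplements (B27 without vitamin A), N-acetylcysteine, HEPES, GlutaMAX and ABAM. It also held 100 ng/ml of Noggin, which blocks BMP signals, 1 µg/ml of R-spondin1, which strengthens Wnt signals, and 10 µM of Y27632. The M scaffold group had that medium on a scaffold of electrospun gelatin. The fourth group, strips of native intestinal muscle, was the study's positive control, though its labels also carry the culture day and the cultured cells' source name. No source used here gives the strain, sex or age of the mice.

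Intermediate filaments are rope-like polymers that carry mechanical load through a cell. Desmin is the main filament protein of muscle cells and joins dense bodies and dense plaques, the anchor points of smooth muscle. Vimentin is the filament protein of fibroblasts, endothelium and other mesenchymal cells. Both form filaments on their own. Synemin and nestin are large proteins that do not, and they enter filaments built by desmin or vimentin. Synemin binds anchor proteins such as alpha-actinin, vinculin and dystrobrevin, while nestin is known from neural progenitors, glia, young vessels and immature or repairing muscle.

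Synm (ENSMUSG00000030554) lies on chromosome 7, 67730160 to 67759742, minus strand, in GRCm38. Des (ENSMUSG00000026208) lies on chromosome 1, 75360329 to 75368579, plus strand. Vim (ENSMUSG00000026728) lies on chromosome 2, 13573927 to 13582826, plus strand, and Nes (ENSMUSG00000004891) on chromosome 3, 87971078 to 87980451, plus strand. All 4 are protein-coding genes, and the values count reads over their exons, which together span 7933 bases in Synm, 3754 in Des, 4743 in Vim and 6416 in Nes. The last exons of Des share 220 bases with an antisense gene that had at most 1 count in any library. Synm shares 84 exon bases with Ttc23 and 426 with a predicted gene on the opposite strand. Ttc23 had 502 to 3200 counts per library and the predicted gene 0 to 158, while Synm had 64 to 170 in P plate. No source used here gives the strand setting of the counting, so reads of these shared stretches cannot be told apart.

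The sequences directly before the start sites of Des and Synm are shown because these genes parted between the media. They are the 250 bases upstream of the RefSeq start in GRCm38.p6, at chr1:75360042-75360291 (plus strand) and chr7:67759743-67759992 (minus strand), each read 5′ to 3′ on the strand of the gene. Capitals mark matches to an E-box (CANNTG) or to a GC box (GGGCGG, here on the opposite strand).
Des: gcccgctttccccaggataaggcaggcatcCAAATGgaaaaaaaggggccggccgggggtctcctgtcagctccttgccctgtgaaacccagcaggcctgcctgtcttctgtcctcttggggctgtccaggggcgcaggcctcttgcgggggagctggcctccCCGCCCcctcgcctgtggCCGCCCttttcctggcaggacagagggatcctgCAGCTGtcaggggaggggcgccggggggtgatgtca
Synm: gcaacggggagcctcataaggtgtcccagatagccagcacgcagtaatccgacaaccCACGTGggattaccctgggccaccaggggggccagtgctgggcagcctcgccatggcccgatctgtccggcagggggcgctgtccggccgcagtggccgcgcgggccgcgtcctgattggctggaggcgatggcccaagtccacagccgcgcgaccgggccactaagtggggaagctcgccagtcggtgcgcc
The Des window held 2 E-boxes, beginning 220 and 36 bases before the start, and 2 GC boxes, beginning 87 and 69 bases before it. The Synm window held 1 E-box, 193 bases before the start, and no GC box. On either strand, 66.2% of 32851 RefSeq promoter windows of this length held an E-box and 32.7% a GC box. The CArG box and the MEF2 site, which bind serum response factor and MEF2 factors, and the TATA box (TATAAA) were found in neither window, and 1.47%, 2.92% and 12.4% of all windows held them. None of these motifs overlapped another in the 2 windows. The windows of Vim and Nes, read in the same way, held 1 TATA box and 2 GC boxes. G and C made up 67.2% of the Des window and 70% of the Synm window, against a median of 52.4% over all windows. These matches describe letters only.

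Between 21396485 and 116643512 counts were assigned to genes in each library, and levels are given as CPM (counts scaled to the library size) after TMM scaling, with mean ± SD over 3 libraries. Acta2 and Myh11, the actin and myosin that define smooth muscle, were present in all 12 libraries, and the summed level of 12 smooth muscle markers ran from 4100.5 to 15078.4 CPM in cultures and from 46438.8 to 48305.2 CPM in strips. All 4 filament genes were among the 17700 genes that passed the filter on low counts. Percentages of all genes given below refer to these 17700. P plate replicate 1 stood apart from its group, with 13842.9 CPM of Lyz2, a lysozyme of macrophages, against 2255.8 and 1585.6 CPM in the other 2. M scaffold replicate 3 was the deepest library, and results were also computed without both of these. In M scaffold, replicate 2 had the lowest sum of smooth muscle markers, 5700.3 CPM. In bulk RNA, fewer cells of a type and less RNA per cell cannot be told apart.

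Synm was close to silent in P plate and among the more abundant genes in strips. Its level was 1.75, 5.10 and 5.42 CPM in P plate replicates 1 to 3, from 64, 166 and 170 counts. In M plate it was 169.5, 87.7 and 106.1 CPM, and in M scaffold 500, 98.5 and 401.4 CPM. No library in M medium overlapped those in P medium, while M scaffold replicate 2 lay within the range of M plate. In strips, Synm reached 864.9, 1035.5 and 967.9 CPM, above every culture. The group means rose in the order P plate (4.09 ± 2.03 CPM), M plate (121.1 ± 42.9), M scaffold (333.3 ± 209.2) and strips (956.1 ± 85.9). M plate and M scaffold were the only neighbours in that order whose libraries overlapped. Per kilobase of exon, a scale that allows genes to be compared, Synm ranked 12393 to 14981 among all genes in P plate and 179 to 240 in strips. The fitted log2 fold change was 4.89 for M plate against P plate and 6.35 for M scaffold against P plate. Libraries did not overlap for 41.9% and 34.0% of all genes in these comparisons. Between strips and P plate, M plate and M scaffold this held for 67.8%, 73.2% and 65.3%.

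Des, in contrast, was abundant in every group and lowest in M plate. In P plate its level was 1305.1, 2061.7 and 3867.7 CPM, and in M plate 831.4, 421.7 and 673.7 CPM. These groups did not overlap, which held for 41.9% of all genes. In M scaffold it was 2059.3, 486.1 and 1897.9 CPM, so that replicate 2 fell into the range of M plate and the other 2 into the range of P plate. In strips it was 3181.9, 3237.8 and 3342.1 CPM, the narrowest range of the 4 groups. The means stood in the order M plate (642.3 ± 206.7 CPM), M scaffold (1481.1 ± 865.5), P plate (2411.5 ± 1316.6) and strips (3253.9 ± 81.3). Each neighbouring pair in that order overlapped. The fitted log2 fold change was -1.91 for M plate against P plate and -0.70 for M scaffold against P plate.

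**Figure D1:**
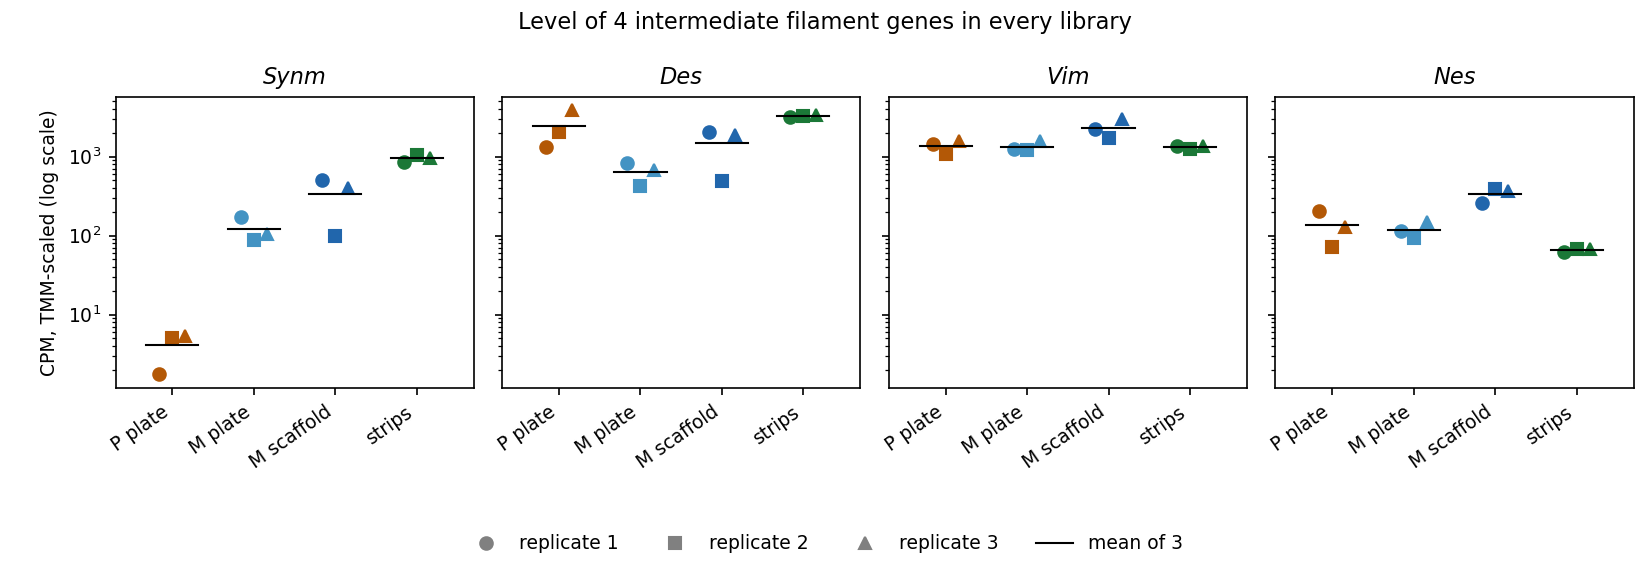
Each point is 1 library (circle, square and triangle for replicates 1, 2 and 3) and each bar the mean of 3, with CPM on a log axis and 1 panel per gene. Synm climbs from a mean of 4.09 CPM in P plate to 956.1 CPM in strips, Des is lowest in M plate, and Vim and Nes are highest in M scaffold.

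The number of Des reads per Synm read, both per kilobase, separated P medium from all other material. It was 1574.3, 853.8 and 1507.8 in P plate. In M plate it was 10.4, 10.2 and 13.4, in M scaffold 8.70, 10.4 and 9.99, and in strips 7.77, 6.61 and 7.30. Within M medium the ratio ran from 8.70 to 13.4 while the Synm level ran from 87.7 to 500 CPM. M scaffold replicate 2 had the lowest Synm and Des of its group and a ratio within the range of M plate. The ratio in strips was below that of every culture. These ratios rest on the contrast that chose the genes and were not tested.

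**Figure D2:**
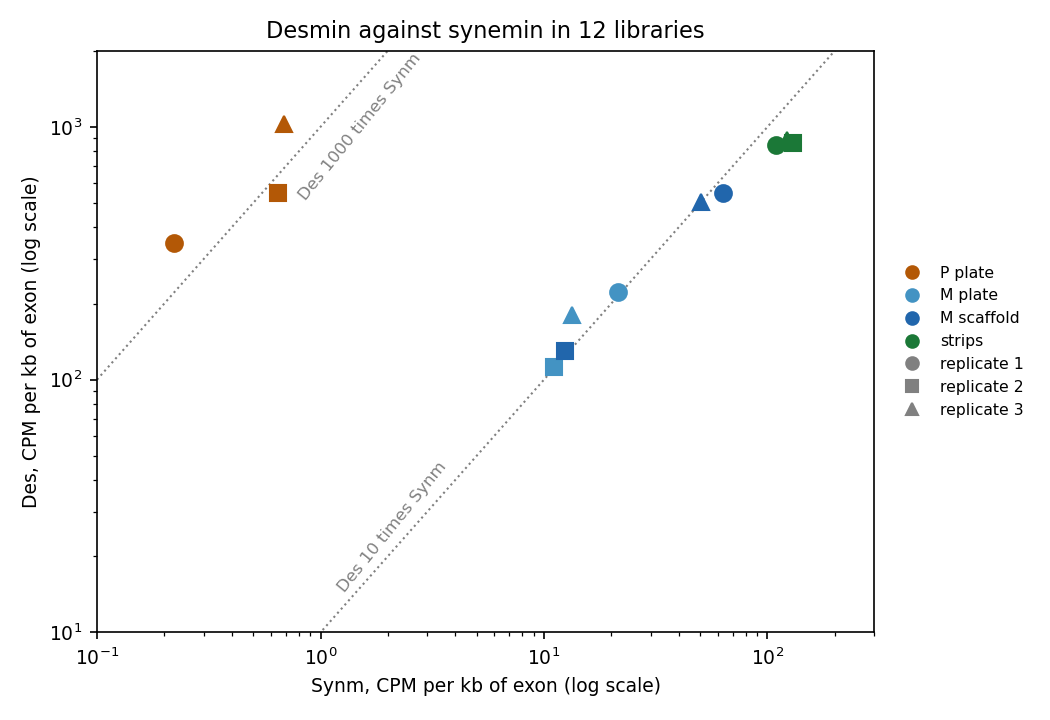
Each point is 1 library, with Synm on the horizontal and Des on the vertical axis, both in CPM per kilobase of exon on log axes, and dotted lines at Des levels of 10 and 1000 times Synm. P plate libraries lie near the upper line, at ratios of 853.8 to 1574.3, and all others lie near the lower one, at 6.61 to 13.4.

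Both genes were also set against the smooth muscle markers of the same library. Des equalled 14.4%, 41.9% and 39.9% of the summed level of the 12 markers in P plate and 10.3% to 11.7% in M plate. Values for M scaffold were 8.53% to 16.8%, and those for strips 6.70% to 7.11%. Synm equalled 0.0193% to 0.104% of that sum in P plate and 1.64% to 2.39% in M plate. For M scaffold the share was 1.73% to 3.55%, and for strips 1.86% to 2.14%. Relative to these markers, Synm in M plate overlapped with strips, whereas Des was above every strip in each of the 9 culture libraries.

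Vim was abundant in all groups and highest on the scaffold. Its level was 1421.6, 1073 and 1586.8 CPM in P plate and 1244.9, 1195.1 and 1572 CPM in M plate. In M scaffold it was 2247.4, 1721.1 and 2973.5 CPM, above every other library, and in strips 1364.6, 1254.8 and 1343.6 CPM. Of all genes, 34.0%, 33.3% and 65.3% had no overlap between M scaffold and P plate, M plate and strips. The means were 1321 ± 58.2 CPM in strips, 1337.3 ± 204.7 in M plate, 1360.5 ± 262.3 in P plate and 2314 ± 628.9 in M scaffold, and the first 3 overlapped one another. The fitted log2 fold change was -0.02 for M plate against P plate and 0.77 for M scaffold against P plate. The 8 fibroblast markers, a list that holds the collagen Col1a1 and the proteoglycan Dcn, summed to 8522 to 11776.1 CPM in P plate and 14095.4 to 15910.7 CPM in M plate. The sum was 16669.2 to 23864.9 CPM in M scaffold and 4065.8 to 5075.7 CPM in strips. Members of this list differed too. Against P plate, 3 of the 8 markers were called higher in strips and 4 lower, beside 32.7% and 30.5% of all genes. Their median log2 fold change was 0.44. None of these markers was at 0 in all libraries of a group, and their part in the Vim level was not tested.

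Nes was likewise highest on the scaffold, and it was lowest in native muscle. Its level was 202.3, 71.4 and 130 CPM in P plate, where replicate 1 was the highest, and 113.1, 92.0 and 147.2 CPM in M plate. In M scaffold it was 254.7, 387.8 and 361.5 CPM, and in strips 62.0, 67.6 and 67.1 CPM. The means stood in the order strips (65.5 ± 3.11 CPM), M plate (117.4 ± 27.8), P plate (134.6 ± 65.6) and M scaffold (334.7 ± 70.5), and only M plate and P plate overlapped. Of all genes, 67.8%, 73.2% and 65.3% had no overlap between strips and P plate, M plate and M scaffold. Between M scaffold and the plates this held for 34.0% (P plate) and 33.3% (M plate). The fitted log2 fold change was -0.20 for M plate against P plate and 1.31 for M scaffold against P plate. Within M scaffold, replicate 2 was highest for Nes and lowest for Synm, Des and Vim.

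Nes is also made by glia, endothelium and pericytes, so their markers are given beside it. The 8 enteric glia markers had a sum of 21.02 to 37.6 CPM in P plate and of 175.6 to 219.2 CPM in M plate. Their sum was 299.4 to 703.5 CPM in M scaffold and 159.4 to 201 CPM in strips. The 8 pericyte markers summed to 377.3 to 518 CPM, 537.6 to 701.7, 959.3 to 1353 and 1809.9 to 2093.2 in the same order of groups. The 10 endothelial markers summed to 75.9 to 101.5 CPM in P plate and 2506.7 to 2845.7 CPM in M plate. They came to 384.7 to 1799.7 CPM in M scaffold and 195.2 to 318.3 CPM in strips. No marker of these lists was at 0 in all libraries of a group, and the defining endothelial marker Pecam1 had 0.0319 to 0.849 CPM in P plate. Members of a list differed: the pericyte receptor Pdgfrb had means of 214.6, 254.6, 351.9 and 21.6 CPM from P plate through M plate and M scaffold to strips, and Rgs5, another pericyte marker, 16.5, 99.4, 183.6 and 1272.7 CPM. Against M scaffold, 2 of the 7 pericyte markers tested were higher in strips and 3 lower, beside 27.6% and 24.5% of all genes. The part of these cells in the Nes level was not tested.

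**Figure D3:**
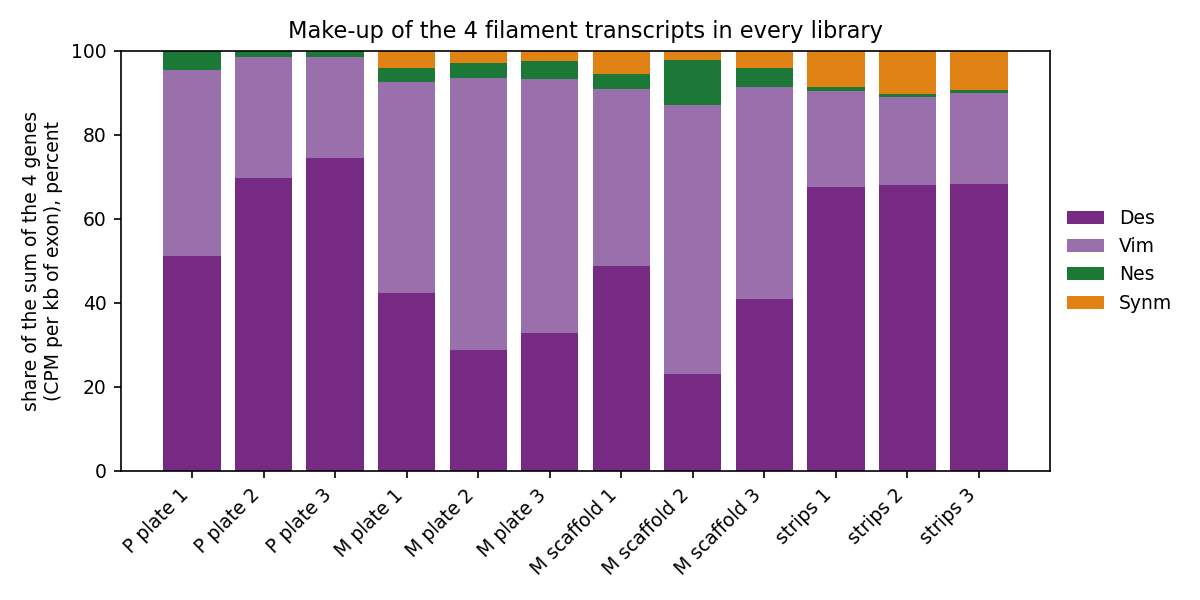
Each bar is 1 library, and the stacked colours give the share of Des, Vim, Nes and Synm in the sum of the 4 genes, in CPM per kilobase of exon. Synm makes up 8.69% to 10.3% in strips and at most 0.0817% in P plate, where its band cannot be seen at this scale.

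As a mixture, the filament transcripts of M medium were led by vimentin and those of native muscle by desmin. Per kilobase, Des took 67.6% to 68.2% of the sum of the 4 genes in strips and 51.2% to 74.4% in P plate. It took 28.8% to 42.4% in M plate and 22.9% to 48.8% in M scaffold. Vim took 20.9% to 22.9% in strips and 50.2% to 64.7% in M plate. Des exceeded Vim 2.95- to 3.26-fold in strips and 1.16- to 3.08-fold in P plate. In M medium Des exceeded Vim in 1 library only, M scaffold replicate 1, with a ratio of 1.16.

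Differences that had not served to choose the genes were tested with edgeR's quasi-likelihood F test, fitted to 17700 genes in all 12 libraries, with p values adjusted over those genes by the Benjamini-Hochberg method. Each log2 fold change is given with its standard error and a 95% interval, which is not adjusted for the number of genes. Of the 4 tested comparisons, 3 share the strips, 2 share M plate and 2 share M scaffold. Each also uses libraries in P or M medium, the media between which the genes were chosen. The p values are therefore not free of that choice.

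The scaffold was compared with the plate in M medium to ask what the culture support did. Nes rose on the scaffold, by a log2 fold change of 1.51 ± 0.33 (0.76 to 2.26, adjusted p = 0.0409 in edgeR). It was the 1 of 4 filament genes called, beside 3.18% of all genes called and 1.53% called higher on the scaffold. Synm had a log2 fold change of 1.46 ± 0.55 (0.20 to 2.72, adjusted p = 0.159), Des of 1.21 ± 0.52 (-0.0051 to 2.42, adjusted p = 0.219) and Vim of 0.79 ± 0.23 (0.27 to 1.31, adjusted p = 0.0816). These 3 did not pass. Libraries with the same replicate number deviated together in these 2 groups. With that number as a block within the 6 libraries, Vim passed, with a log2 fold change of 0.78 (adjusted p = 0.0436). In that fit Nes had 1.52 (adjusted p = 0.0248), Synm 1.24 (adjusted p = 0.0959) and Des 1.02 (adjusted p = 0.0883). It called 1718 genes, against 1068 in the same 6 libraries without the block. There, Nes had 1.52 (adjusted p = 0.0242) and Vim 0.80 (adjusted p = 0.0988). Fitted to all 12 libraries, edgeR called 562 genes without a block and 391 with it. For Nes and Vim the scaffold and plate libraries did not overlap, which held for 33.3% of all genes. Without the block, the Nes call was lost when any 1 of the 6 libraries was left out, except M scaffold replicate 1, with adjusted p values from 0.0475 to 0.177. Without M scaffold replicate 2, the log2 fold change was 1.92 for Synm (adjusted p = 0.0525) and 1.64 for Des (adjusted p = 0.0751).

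The strips were compared with P plate to set serum culture against native muscle. Synm was higher in strips by a log2 fold change of 7.87 ± 0.73 (6.19 to 9.55, adjusted p = 9.14e-06 in edgeR). Nes was lower, by -1.04 ± 0.32 (-1.78 to -0.29, adjusted p = 0.0165). These 2 of 4 calls stand beside 63.1% of all genes called, and beside 67.8% whose libraries did not overlap. Des differed by 0.43 ± 0.52 (-0.76 to 1.63, adjusted p = 0.486) and Vim by -0.04 ± 0.23 (-0.56 to 0.48, adjusted p = 0.88), and neither passed. The Nes call was lost when P plate replicate 1 was left out, at -0.58 (adjusted p = 0.0829), and when strips replicate 1 was, at -0.98 (adjusted p = 0.0555).

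Against M plate, strips had more of both muscle filament genes. The log2 fold change was 2.98 ± 0.58 for Synm (1.65 to 4.31, adjusted p = 0.00151 in edgeR) and 2.34 ± 0.54 for Des (1.09 to 3.60, adjusted p = 0.00428). Nes was lower in strips, by -0.84 ± 0.32 (-1.58 to -0.10, adjusted p = 0.0463). Vim differed by -0.02 ± 0.23 (-0.54 to 0.50, adjusted p = 0.952). The 3 of 4 calls stand beside 54.9% of all genes called, and beside 73.2% without overlap. The Nes call was lost when any 1 of the 6 libraries was left out, except M plate replicate 2, with adjusted p values from 0.0465 to 0.155.

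Against M scaffold, strips had more Synm and less Vim and Nes. The log2 fold change was 1.52 ± 0.55 for Synm (0.26 to 2.78, adjusted p = 0.038 in edgeR), -0.81 ± 0.23 for Vim (-1.33 to -0.29, adjusted p = 0.0126) and -2.35 ± 0.34 for Nes (-3.13 to -1.58, adjusted p = 0.000323). Des had a value of 1.14 ± 0.52 (-0.07 to 2.34, adjusted p = 0.0918) and did not pass. The 3 of 4 calls stand beside 52.1% of all genes called, while the libraries of all 4 genes did not overlap, beside 65.3%. The Synm call was lost when any 1 of the 6 libraries was left out, except M scaffold replicate 1, with adjusted p values from 0.0293 to 0.0786. Of the smooth muscle markers, 10 of 12 were higher in strips than in M scaffold and none was lower, beside 27.6% and 24.5% of all genes.

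**Figure D4:**
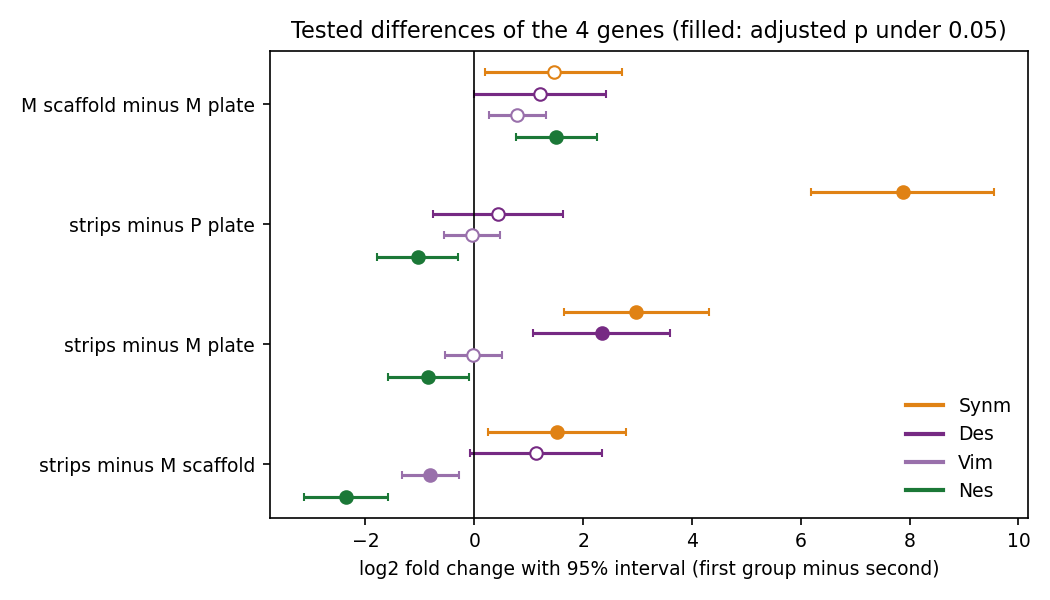
Points give the log2 fold change of each gene in the 4 tested comparisons and lines its 95% interval, and filled points have an adjusted p under 0.05. Synm against P plate lies farthest from 0, at 7.87, and Nes against M scaffold lies farthest below 0, at -2.35.

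Of 18 other intermediate filament genes, all tested, 12 were higher and 1 lower in strips than in P plate, beside 32.7% and 30.5% of all genes. The list had a median log2 fold change of 2.05 against 0.03 over all genes. Against M plate 11 rose and none fell, beside 28.4% and 26.5% of all genes. Against M scaffold 9 rose and none fell, beside 27.6% and 24.5%. The medians were 1.38 and 1.44. The filament genes of neurons led the list. Nefl, the light neurofilament chain, had 34.9 ± 6.24 CPM in strips and 0.0418 ± 0.0362 in P plate, where replicate 1 had no count. Ina, which encodes alpha-internexin, had 58.0 ± 11.5 CPM in strips, 7.07 ± 1.20 in M scaffold, 3.54 ± 1.45 in M plate and 0.382 ± 0.0839 in P plate. Prph, which encodes peripherin of peripheral neurons, had 297.8 ± 56.7 CPM in strips and 33.7 ± 2.89 in M scaffold (log2 fold change 3.15 ± 0.62, adjusted p = 0.00196). Of the 10 enteric neuron markers, all 10 were higher in strips than in P plate and M plate, beside 32.7% and 28.4% of all genes. Against M scaffold 8 were higher and none lower, beside 27.6% and 24.5%. Their sum was 1547.9 to 2082.4 CPM in strips and 452.1 to 667.7 CPM in M scaffold. In M plate it was 167.8 to 297.4 CPM and in P plate 33.1 to 76.9 CPM. Their part in these levels was not tested.

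Sync, which encodes syncoilin, a filament protein of muscle that binds desmin and dystrobrevin, was the 1 gene of the list that was lower in strips than in P plate. It had 10.5 ± 2.50 CPM in strips and 30.0 ± 14.0 in P plate (log2 fold change -1.50 ± 0.36, adjusted p = 0.00407). The list had 3 genes lower when P plate replicate 1 was left out. Between media, with no test, 7 of the 18 were past 2-fold higher in M plate than in P plate and 2 past 2-fold lower, beside 16.8% and 6.14% of all genes. The lower ones were Krt18 and Krt8, partner keratins of simple epithelia and mesothelium, at log2 fold changes of -1.87 and -1.02. Both varied widely in P plate, where Krt18 had 164.5 ± 116.2 CPM and Krt8 53.7 ± 44.2. Mesothelial markers varied there too, with a sum of 390.9 to 3647.4 CPM. Against P plate, 8 were past 2-fold higher and 5 lower in M scaffold, beside 17.1% and 7.21%. Between scaffold and plate in M medium, edgeR called none of the 18, beside 1.53% of all genes called higher and 1.64% lower. With the replicate block within the 6 libraries, which called 1718 genes against 1068 there without it, 4 were higher and 1 lower.

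**Figure D5:**
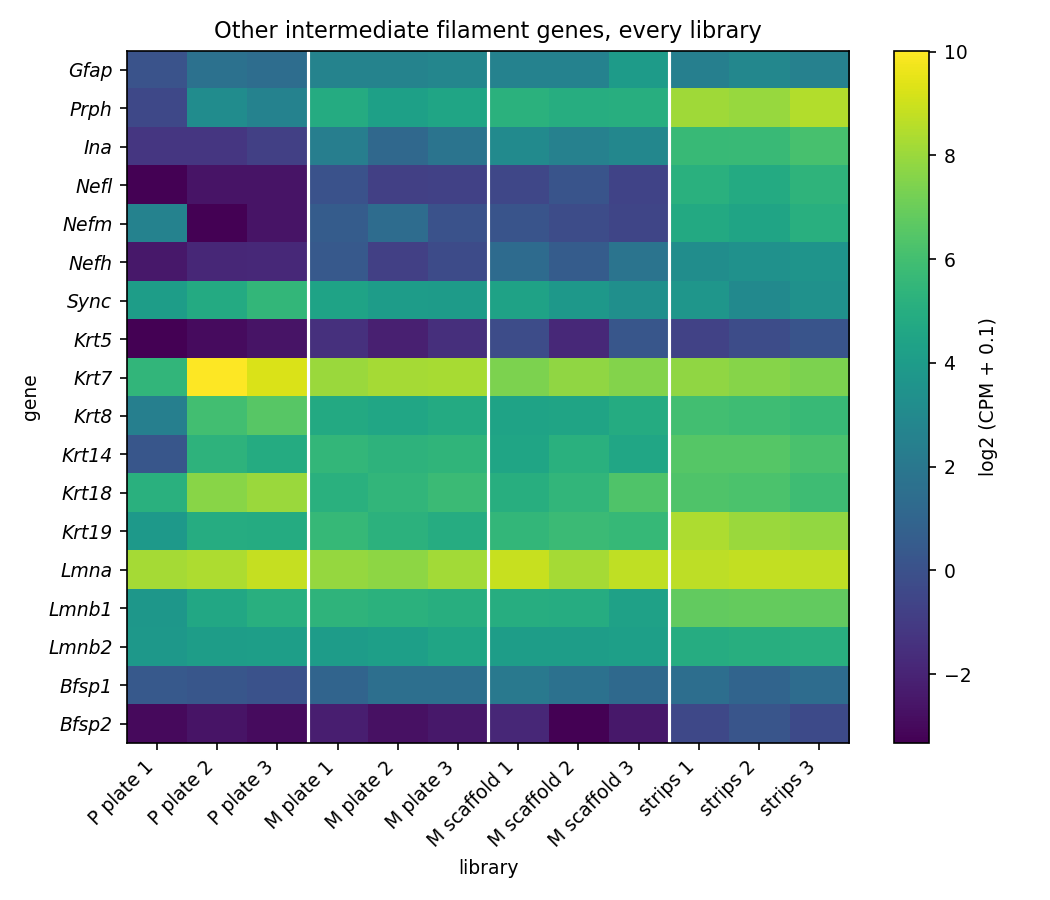
Rows are the 18 other intermediate filament genes and columns the 12 libraries, and colour gives log2 of CPM plus a pseudocount of 0.1. The neurofilament genes Nefl, Nefm and Nefh and the genes Ina and Prph are brightest in the 3 strips, with Prph at 297.8 CPM on average.

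Proteins that tie filaments to anchor points did not move as 1 group. Of the plakins, giant linkers between filaments and other structures, 6 of 7 were tested, and Dsp, Ppl and Evpl were higher in strips than in each culture group, while none was lower. Of all genes, 32.7%, 28.4% and 27.6% were called higher in strips than in P plate, M plate and M scaffold. Between scaffold and plate none of the 6 was called, beside 3.18% of all genes. With the replicate block within those libraries alone, which called 1718 genes against 1068 there without it, 1 was lower on the scaffold. Dsp, which encodes desmoplakin of desmosomes, had 34.5 ± 10.6 CPM in strips and 0.292 ± 0.130 in P plate. Ppl, which encodes periplakin, had 79.8 ± 7.95 CPM in strips, 12.3 ± 2.86 in M scaffold, 26.1 ± 7.34 in M plate and 1.47 ± 1.14 in P plate. These 3 are known from epithelia, and the 6 epithelial markers summed to 60.4 to 357.9 CPM in strips and 2.96 to 7.84 CPM in cultures. Their part in these levels was not tested.

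Of 22 genes of dense plaques and of the dystrophin complex, 9 were higher and 12 lower in strips than in P plate, beside 32.7% and 30.5% of all genes, with a median log2 fold change of -0.39. Dmd, the dystrophin gene, had 117.9 ± 15.7 CPM in strips and 27.4 ± 1.78 in P plate (log2 fold change 2.11 ± 0.28, adjusted p = 9.69e-05). Dtna, which encodes the synemin partner alpha-dystrobrevin, had 71.3 ± 0.857 CPM in strips, 82.4 ± 30.1 in M scaffold, 40.7 ± 5.74 in M plate and 28.1 ± 3.09 in P plate. It was the 1 gene of the 22 called between scaffold and plate (log2 fold change 1.02 ± 0.22, adjusted p = 0.0409 in edgeR), beside 1.53% of all genes called higher on the scaffold. The call was lost in 7 alternatives, the replicate block within the 6 libraries among them. With that block, which called 1718 genes against 1068 in those libraries without it, 1 other gene of the list was called, lower on the scaffold. Vcl, which encodes vinculin, fell from 828.5 ± 315.6 CPM in P plate to 244.2 ± 24.7 in strips, and was also lower in strips than in M plate and M scaffold. Zyx, which encodes zyxin of focal adhesions, had 868.2 ± 426.7 CPM in P plate and 223.4 ± 19.8 in strips (log2 fold change -1.96 ± 0.33, adjusted p = 0.000501). Against M plate 8 of the 22 were higher in strips and 6 lower, beside 28.4% and 26.5% of all genes, and against M scaffold 5 were higher and 7 lower, beside 27.6% and 24.5%. These 5 became 3 without M scaffold replicate 3 or without strips replicate 3, and the 7 became 4 without strips replicate 1.

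Of 12 chaperones and turnover proteins of filaments, 1 was higher and 8 lower in strips than in P plate, beside 32.7% and 30.5% of all genes. Against M plate 2 were higher and 3 lower, beside 28.4% and 26.5%, and against M scaffold 1 and 3, beside 27.6% and 24.5%. Without strips replicate 3, the 8 lower against P plate became 5. The 1 gene higher against P plate was Hspb6, a small heat shock protein of smooth muscle, at 170.1 ± 26.6 CPM in strips and 22.4 ± 3.82 in P plate. Cryab, which encodes alphaB-crystallin, a chaperone that binds desmin, had 160.8 ± 6.12 CPM in strips and 349.6 ± 156.8 in P plate (log2 fold change -1.12 ± 0.27, adjusted p = 0.00406). With no test, Cryab, Hspb7 and Hspb8 were past 2-fold lower in M plate than in P plate, at log2 fold changes of -1.21, -1.14 and -1.09. Des was lower there too. Hspb8, a chaperone that works with Bag3, was the 1 of the 12 called between scaffold and plate, beside 1.53% of all genes called higher on the scaffold. It was higher there by 1.16 ± 0.24 (adjusted p = 0.0377 in edgeR), a call lost in 5 alternatives. The replicate block within the 6 libraries, which called 1718 genes against 1068 there without it, gave 2 of the 12 higher.

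Kinases that phosphorylate filament proteins moved in both directions. Of 15, 6 were higher and 5 lower in strips than in P plate, beside 32.7% and 30.5% of all genes. Against M plate 9 were higher and 3 lower, beside 28.4% and 26.5%, and against M scaffold 8 and 3, beside 27.6% and 24.5%. The 8 became 5 without M scaffold replicate 2, without strips replicate 2 or without strips replicate 3. Cdk5r1, which encodes an activator of the kinase Cdk5, had 12.2 ± 1.80 CPM in strips and 1.85 ± 0.522 in P plate (log2 fold change 2.72 ± 0.27, adjusted p = 1.58e-05). Rock2 and Rock1 were lower in strips than in each culture group, with log2 fold changes of -1.05 and -0.66 against M plate. Between scaffold and plate Pak1 alone was called (0.59 ± 0.14, adjusted p = 0.0476 in edgeR), beside 1.53% of all genes called higher on the scaffold. That call was lost when any 1 of the 6 libraries was left out. Aurkb, a mitotic kinase of vimentin and desmin, had 30.7 ± 2.49 CPM in strips and 8.14 ± 5.53 in P plate. The 8 cell cycle markers moved with it, with a sum of 683.6 to 777.2 CPM in strips and 96.0 to 288 CPM in cultures, and their part in this was not tested.

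Transcription factors tied to these genes included the smooth muscle coactivator Myocd, which had 1.38 ± 0.994 CPM in P plate, 8.96 ± 3.37 in M plate, 17.1 ± 14.5 in M scaffold and 86.2 ± 6.90 in strips. Its group means thus stood in the order of those of Synm. Of the 17 factors tested out of 18, 6 were higher and 5 lower in strips than in P plate, beside 32.7% and 30.5% of all genes. Against M plate 3 were higher and 6 lower, beside 28.4% and 26.5%, and against M scaffold 2 and 6, beside 27.6% and 24.5%. The 6 lower against M plate became 3 without M plate replicate 2 or without strips replicate 1. Those against M scaffold became 11 without both P plate replicate 1 and M scaffold replicate 3. Srf, the partner of Myocd, was higher in strips than in M plate (250.5 ± 23.2 against 100.5 ± 18.3 CPM, log2 fold change 1.32 ± 0.21, adjusted p = 0.00041). Mrtfa went the other way. It was lower in strips than in P plate (log2 fold change -1.24 ± 0.16, adjusted p = 9.77e-05 in edgeR) and M plate (-1.125 ± 0.16, adjusted p = 0.000284). Snai1 was lower in strips than in each culture group, with 5.83 ± 0.200 CPM in strips and 24.3 ± 0.683 in M plate. Sox2 and Sox10, factors of glia and neural crest of which Sox2 is tied to Nes, had 21.2 ± 14.8 and 103.3 ± 54.5 CPM in M scaffold, against 1.06 ± 0.528 and 6.81 ± 3.16 CPM in P plate. Sox2 was lower in strips than in M scaffold (log2 fold change -2.66 ± 0.47, adjusted p = 0.00107). Zeb1 was the 1 factor called between scaffold and plate (0.65 ± 0.10, adjusted p = 0.0141 in edgeR), beside 1.53% of all genes called higher on the scaffold. The call was lost in 2 alternatives. The replicate block within the 6 libraries, which called 1718 genes against 1068 there without it, gave 3 factors higher.

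For each filament gene, the 5 genes with the most similar pattern were taken by Pearson's r of log2 CPM over the 12 libraries, among 10360 genes whose mean reached 10 CPM. The points share groups and libraries, so these values are descriptions. For Synm they were Tmem252 (r = 0.995), Casq2 (0.990), Filip1 (0.989), Htr3a (0.987) and Plin4 (0.987), and 3.10% of the 10360 genes had an r over 0.9. Casq2, a calcium store protein of muscle, had mean levels of 1.21, 15.7, 30.7 and 100.5 CPM from P plate through M plate and M scaffold to strips. For Des they were Tagln (0.957), Fzd2 (0.934), Nt5e (0.933), Gadd45gip1 (0.928) and Elob (0.926), and 0.212% of the 10360 genes passed 0.9. Tagln, an actin-binding protein of smooth muscle, had 381.4, 97.7, 171.8 and 456.7 CPM in that order, lowest in M plate like Des. It shares 108 exon bases with Pcsk7 on the opposite strand, so part of its reads may not have been assigned.

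For Vim the most similar patterns were those of Gpc1 (0.926), Col5a1 (0.926), Sorcs2 (0.907), Dpf2 (0.885) and Postn (0.868), and 0.029% of the 10360 genes passed 0.9. Col5a1 and Postn encode matrix proteins of fibroblasts. Col5a1 had 707.6, 738.7, 1398.9 and 621.2 CPM from P plate through M plate and M scaffold to strips. For Nes they were Stk3 (0.954), Atp8b1 (0.947), Sphk1 (0.944), Cyp1b1 (0.927) and Ust (0.917), and 0.116% passed 0.9. Sphk1, a kinase that makes sphingosine 1-phosphate, had 23.4, 15.0, 53.6 and 4.55 CPM in the same order. None of the 5 genes of one filament gene appeared among the 5 of another. Lists this short do not show that the patterns are separate, as Vim and Nes themselves had r = 0.797. Values for the other pairs of filament genes ran from -0.384 (Des with Nes) to 0.24 (Synm with Vim).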

How the data were processed

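RNA was sequenced from 12 libraries of mouse intestinal muscle cells and muscle strips. Per the labels' protocols, Qiashredder and RNeasy kits served for RNA and a TruSeq v2 kit for the libraries. The submitters' processing notes name STAR 2.6.0 and the builds GRCm38 and mm10. The authors deposited raw counts per gene, 1 column per sample. The design text mentions 2 technical replicates. No source used here gives how they were joined, the counting program, the annotation or the strand setting. The 5 summary rows were left out of library sizes (reads in no feature were 4.20% to 7.87%, and ambiguous reads 3.12% to 3.87%, of gene, no-feature and ambiguous reads). GENCODE M21 gave coordinates, exon lengths and the symbols of 52403 of 52550 genes.

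Genes were filtered with filterByExpr, scaled by TMM (factors 0.893 to 1.15) and fitted in edgeR 4.0.16 under R 4.3.3 with the group as the only term (8 residual degrees of freedom). Tests are two-sided, with a threshold of 0.05 on the adjusted p. The fit recovered known changes in simulated counts. These had the same spread setting for every gene and group, so they do not show how it performs at the spread found here. The standard error was the fold change over the root of F. A count of 0 allows up to 3 counts, or 0.0271 to 0.125 CPM, and covers counting error only. Replicates differed by 41.0 to 450 in chi-square per gene, far above sampling noise. The design text calls them biologically independent, but no label ties them to animals, so p values measure the spread between these samples, which may be technical. Replicate numbers, taken from the sample titles, paired the libraries of M plate and M scaffold, where all 3 same-numbered pairs deviated from their group means with correlations of 0.196 to 0.304, but not those of the other comparisons. Members, lists and tests were chosen with earlier results of these data known. Up to 3 called genes per list, direction and comparison could be named. Alternatives were other scaling, no filter, DESeq2 1.42.0, limma-voom (limma 3.58.1), a replicate block, 2-group fits and left-out libraries.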

Additional observations from a re-analysis of the deposited data

How the results depend on the processing

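With each library left out in turn, and with other scaling, filter, tool or block, 184 tested values of the 4 genes kept their direction and their side of the threshold, 24 lost the call, 3 gained it and 9 changed sign. All 9 sign changes were in Vim against P plate or M plate, where its value is near 0. In strips, the Synm and Des calls against M plate, Synm against P plate, and Vim and Nes against M scaffold held in all alternatives. With DESeq2 size factors in edgeR, strips against M plate gave 0.0051 for Vim and -0.82 for Nes (adjusted p = 0.0572). DESeq2 itself gave 0.0051 for Vim in that comparison, 0.80 for Vim between scaffold and plate (adjusted p = 0.00711) and 1.15 for Des between strips and M scaffold (adjusted p = 0.0466), which edgeR did not call. With limma-voom, Nes between strips and M plate was -0.81 (adjusted p = 0.0538). Fitted to the 2 groups alone, Nes between strips and P plate was -1 (adjusted p = 0.0514). Without a filter on low counts, 12154 genes (M plate against P plate) and 12539 (M scaffold against P plate) were past 2-fold, against 4059 and 4301 with it, among more genes. The 562 genes called between scaffold and plate became 2019 with DESeq2, 1004 with limma-voom and 1068 with 2 groups alone. The cause of these differences was not tested.

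Beyond M plate and M scaffold, replicate numbers did not pair the samples. Over all comparisons, those 2 groups included, 4 of 18 same-numbered pairs had deviations that correlated above 0.1 (range -0.103 to 0.304). The pairs of M plate with M scaffold had 0.290, 0.196 and 0.304. The other above 0.1 was P plate replicate 2 with M scaffold replicate 2, at 0.127. A replicate block across the 12 libraries gave Nes values of 1.55 between scaffold and plate (adjusted p = 0.0572) and -0.82 between strips and M plate (adjusted p = 0.068). With the block within the 6 libraries compared, Vim was 0.78 between scaffold and plate (adjusted p = 0.0436), with 1718 genes called, while between strips and P plate Nes was -0.88 (adjusted p = 0.101) and Vim 0.011.

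Leaving out 1 library at a time gave 1.10 to 1.93 for Synm between strips and M scaffold, 1.37 to 1.71 for Nes between scaffold and plate, -0.98 to -0.65 for Nes between strips and M plate, and -1.34 to -0.58 for Nes between strips and P plate. Vim ran from -0.19 to 0.12 between strips and P plate, -0.081 to 0.11 between strips and M plate and -0.18 to 0.10 between M plate and P plate. Nes ran from -0.51 to 0.23 between M plate and P plate. Genes called between scaffold and plate ran from 18 (without M plate replicate 2) to 348. Without both P plate replicate 1 and M scaffold replicate 3, an alternative chosen after seeing the data, 1355 genes were called between scaffold and plate. Nes and Vim between strips and P plate were then -0.58 (adjusted p = 0.088) and 0.026, and Nes and Vim between M plate and P plate 0.23 and 0.011. Of values of named genes from the lists, 1170 kept their call and 47 lost it, and of counts in lists, 586 stayed within 1.5 times and 74 did not. Synm in P plate rests on 64 to 170 counts per library.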

Other observations

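Ckm, the muscle form of creatine kinase and best known from skeletal muscle, followed the same order of groups as Synm. Its level was 0.0638 to 0.137 CPM in P plate and 4.49 to 9.26 CPM in M plate. M scaffold had 10.7 to 54.0 CPM and strips 132.2 to 169.5 CPM. Myog, which encodes the skeletal muscle factor myogenin, had no count in any of the 12 libraries, which allows at most 0.0271 to 0.125 CPM. Members of the skeletal muscle list differed. Acta1, also on it, was highest in P plate, with means of 7.54, 0.956, 1.44 and 3.54 CPM from P plate through M plate and M scaffold to strips. Of the 8 skeletal muscle markers on the list, 6 could be tested, and 3 of these were higher in strips than in P plate, with none lower, beside 32.7% and 30.5% of all genes. Against M plate 3 were higher and 1 lower, beside 28.4% and 26.5%, and against M scaffold 3 and none, beside 27.6% and 24.5%.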
